A study of Mus musculus with 18 samples.

Results

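Replicate sets 2 and 3 of mESCs (mouse embryonic stem cells) grown in serum were compared with each other, siRNA by siRNA. The members were 10 of the 16 libraries in the deposited table, itself part of a series of 18 samples. They were defined by their set number and siRNA, a choice made with earlier results of these data known. Each set gave 1 library of each of 5 siRNAs, so that 5 pairs of libraries with the same siRNA could be formed. All 10 libraries were of male E14 cells grown on gelatin in medium with FCS and LIF and harvested 24 h after transfection. The siRNAs were scrambled (scr), which targets no gene, and 4 against the cohesin subunit *Stag1*. SP and 3p were pools of commercial siRNAs, 5p was a single custom duplex, and SATS was an enzymatically made siRNA mixture against the 5′ UTR of that name. E14 is 1 cell line, and the labels do not say whether the 5 libraries of a set came from 1 culture or from several. Culture, library preparation and sequencing therefore cannot be told apart in a difference between sets, and the p-values below measure how alike the 5 pairs were rather than how 2 independent cultures differ.

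The values were normalized read counts, that is, the reads of a gene divided by 1 size factor per library. The 10 libraries held 32137666 to 45660840 reads on genes, a range that the sets shared. The share of *Rn45s*, which stands for precursor rRNA, was 14.7% to 20.3% in set 2 and 19.3% to 23.9% in set 3. *Stag1*, the target of the siRNAs, was at 1876, 406, 392, 441 and 947 in set 2 and 2113, 371, 365, 401 and 1051 in set 3, in the order scr, SP, 3p, 5p and SATS that is kept for all values below. It was lower under each of the 4 siRNAs against it than under scr in both sets. The set difference of *Stag1* was −0.010 on the log2 scale (standard error 0.061, limma adjusted p = 0.905). With a trend on transcript length and GC content removed, called the GC trend and described below, this difference was −0.22 (limma adjusted p = 0.011).

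mESCs in serum and LIF are a mixed and changeable population. Naive cells resemble the epiblast of the blastocyst before implantation, and their network of transcription factors (*Nanog*, *Esrrb*, *Klf4*, *Tbx3*, *Tfcp2l1*) is held up by LIF through Stat3. Cells that leave this state become formative and then primed, like the epiblast after implantation, and turn on *Otx2*, *Fgf5* and the de novo DNA methyltransferases while *Pou5f1* stays on. Nodal signalling, with its own target genes *Lefty1* and *Lefty2*, and FGF signalling accompany that exit. A rare subset of mESCs expresses genes of the 2-cell embryo, and differentiating cells express markers of mesenchyme or extraembryonic lineages. In bulk libraries, fewer cells of a type and less RNA per cell cannot be told apart.

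Set 3 differed from set 2 in a large part of the transcriptome. Of 16490 genes tested, 8508 passed an adjusted p of 0.05 (51.6%; limma on log2 of the value plus 1, with the siRNA as a term and Benjamini-Hochberg adjustment over all genes). Of these, 3988 were higher in set 3 (24.2% of the genes tested) and 4520 were lower (27.4%). Most differences were small, and the median absolute difference was 0.20 on the log2 scale among the 11019 genes averaging 50 or more. A difference of at least 2-fold was reached by 351 of the higher genes (2.13% of the genes tested) and 755 of the lower genes (4.58%). The 5 libraries of set 3 all lay above the 5 of set 2 for 1996 genes (12.1%) and all below for 2692 (16.3%). In the first principal component, which held 66.9% of the variance, the libraries of set 2 lay between −24.1 and −20.9 and those of set 3 between 20.6 and 23.9.

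**Figure D1:**
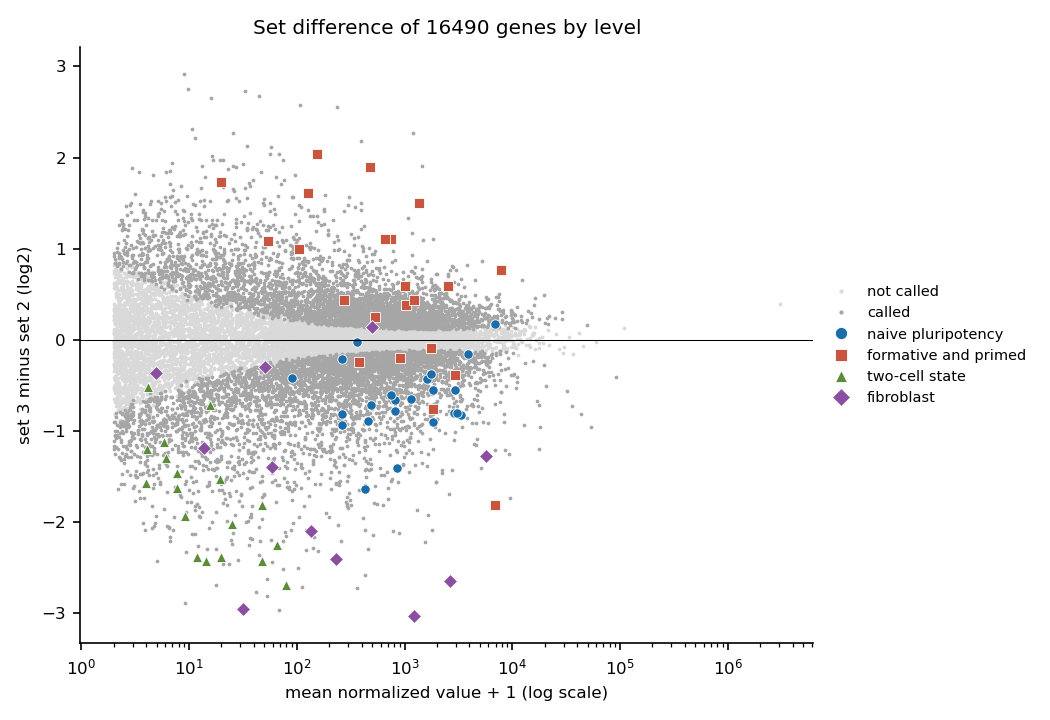
The set difference (set 3 minus set 2, log2) of each of the 16490 genes tested is plotted against its mean normalized value plus 1 on a log axis, with called genes in darker grey. Coloured symbols mark the naive, the formative and primed, the 2-cell and the fibroblast genes. The naive, 2-cell and fibroblast genes lie mostly below 0, while 16 of 22 formative and primed genes were called higher, against 24.2% of all genes tested.

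Most naive pluripotency genes were lower in set 3. Of 23 genes of this group, 21 were lower in set 3 and 0 higher, against 27.4% and 24.2% of all genes tested, and their median difference was −0.67 against −0.006 over all genes. In 13 of them the libraries of set 3 all lay below those of set 2, against 16.3% of all genes tested. The median was between −0.87 and −0.49 in the 5 siRNA pairs. The 2 genes not called were *Pecam1* (−0.025), an adhesion molecule, and *Dppa5a* (0.17), an RNA-binding protein of pluripotent cells, which was called higher without the 3p pair (0.27, limma adjusted p = 0.00743).

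*Tbx3* (chr5:119670669-119684724 in build mm10, as are all coordinates), a T-box factor of the naive network, had the largest fall of the group, with values of 868, 605, 582, 569 and 595 in set 2 and 252, 176, 198, 220.2 and 179 in set 3. That is a 3.12-fold lower level (−1.64 ± 0.069 log2, moderated standard error of the limma fit over 5 pairs, adjusted p = 5.43e-10). The highest library of set 3 was below the lowest of set 2. *Klf4* (chr4:55527143-55532466), a direct target of Stat3, was at 1340.1, 1309.8, 1243, 1124 and 1137 in set 2 and 614, 431, 379, 504 and 411 in set 3, a 2.66-fold lower level (−1.41 ± 0.079, limma adjusted p = 7.66e-09). *Nanog* (chr6:122707489-122714633), the homeobox factor that stabilizes the naive state, was at 4069, 3023, 3356, 3388 and 3552 in set 2 and 2399.9, 2011, 2116, 2610.4 and 2748 in set 3. It fell by 0.55 on the log2 scale (standard error 0.060, limma adjusted p = 4.35e-06), again without overlap between the sets.

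*Esrrb*, an orphan nuclear receptor of the same network, was at 4255, 3461, 3567, 3446 and 3478 in set 2 and 2564, 1946, 1796, 2397 and 1837 in set 3. *Zfp42* (also called Rex1), a widely used naive marker, was at 4045, 3787, 3925, 4068 and 3759.5 in set 2 and 2591, 1911, 1818, 2899 and 2188 in set 3. In both genes every library of set 3 was below every library of set 2, with differences of −0.80 ± 0.061 and −0.80 ± 0.074. *Tfcp2l1* (−0.83), *Klf5* (−0.90), *Klf2* (−0.65) and *Tcl1* (−0.94), which encodes a coactivator of Akt, were also lower without overlap. *Dppa3* (−0.81) and *Prdm14* (−0.42), factors linked to low DNA methylation, were lower with some overlap. Within set 3 the scr and 5p libraries held the highest values of *Klf4*, *Esrrb* and *Zfp42*, and in set 2 the scr library held the highest value of *Tbx3* and *Esrrb*.

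**Figure D2:**
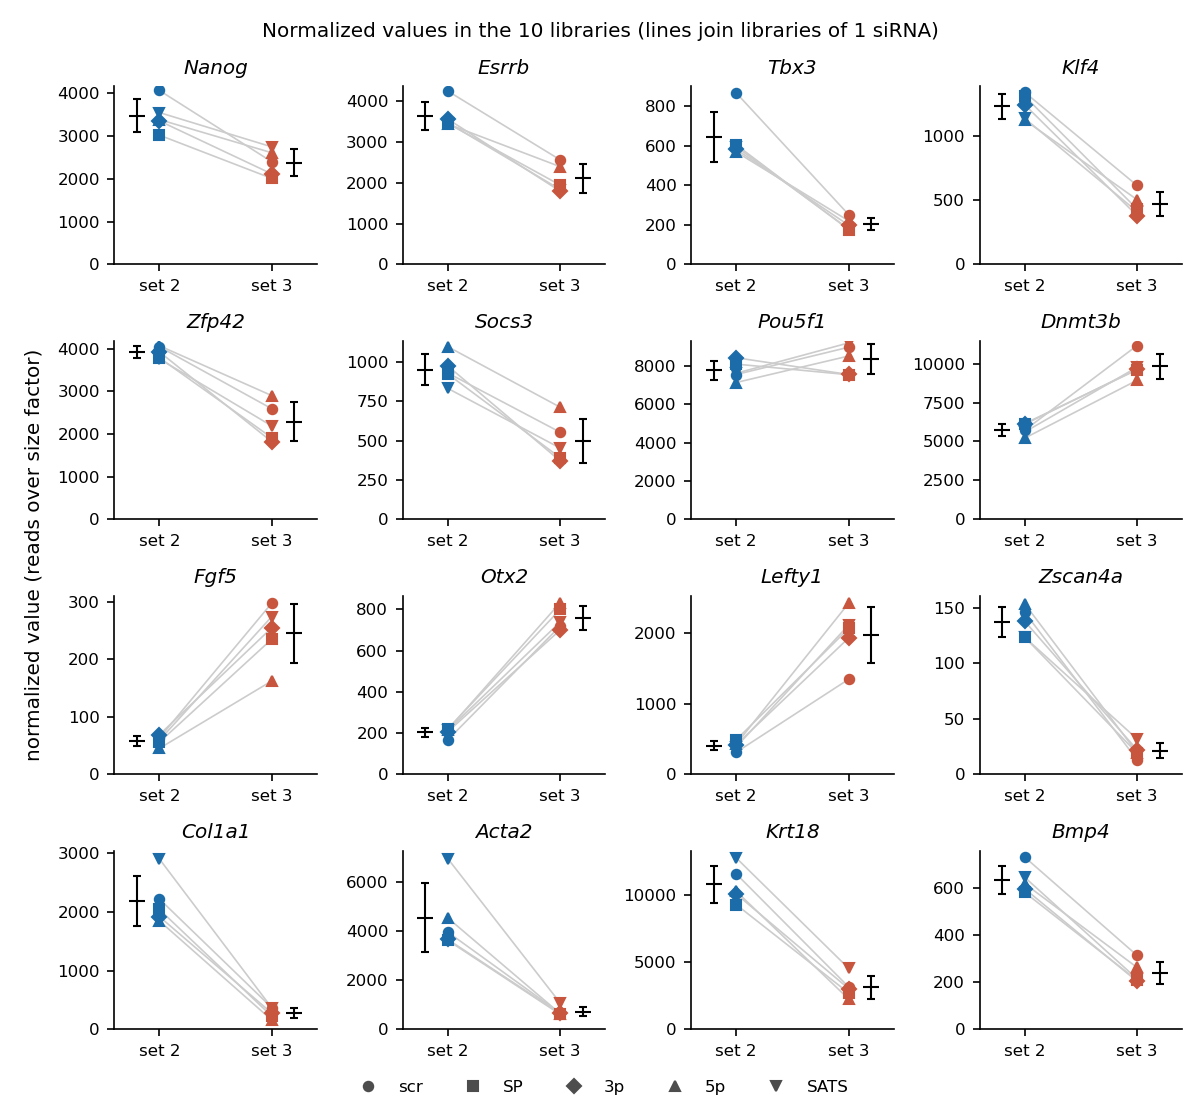
Normalized values (linear axes from 0) of 16 genes in the 10 libraries, with set 2 in blue, set 3 in red, a symbol for each siRNA and grey lines joining libraries of 1 siRNA. Black bars give mean ± SD over the 5 libraries of a set, and in 15 of the 16 panels, all but that of *Pou5f1*, the sets do not overlap. Over all genes tested, set 3 lay wholly above set 2 in 12.1% and wholly below in 16.3%.

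Most genes of the LIF pathway were lower as well. Of 11 genes for the ligand, its receptor, the kinases and their targets, 10 were lower in set 3 and 0 higher, against 27.4% and 24.2% over all genes (median −0.34). *Socs3* (chr11:117966079-117970047), the feedback inhibitor that Stat3 induces, was at 932, 926, 977, 1099 and 834 in set 2 and 554, 392, 371, 713 and 453 in set 3. The fall was 1.97-fold (−0.98 ± 0.092, limma adjusted p = 1.10e-06). *Bcl3*, another Stat3 target, fell by 0.92 on the log2 scale, from 434 ± 9.24 in set 2 to 232 ± 45.2 in set 3 (SD, n = 5 libraries each). The receptor chains *Lifr* (−0.34) and *Il6st* (−0.29) and *Stat3* itself (−0.31) had smaller differences than these targets, and *Jak1* (−0.13, limma adjusted p = 0.0553) was not called. *Lif*, the cytokine's own gene, was lower (−0.62) from a low level, 249 ± 22.0 in set 2 and 162 ± 22.1 in set 3.

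The core pluripotency genes, which naive and primed cells share, moved in both directions. Of 15 genes, 6 were higher, 2 were lower (24.2% and 27.4% over all genes) and 7 were not called (median 0.084). *Pou5f1* (Oct4), the factor required for pluripotency in both states, was at 7545, 8088, 8419, 7128 and 7611 in set 2 and 8967, 7536, 7546, 8509 and 9193 in set 3. The sets overlapped, and the difference was 0.10 ± 0.068 (limma adjusted p = 0.223). *Sox2*, its partner factor, was lower (−0.36), as was *Nanog*, the other gene of the group that fell. *Dppa4* (0.43) and the Nodal co-receptor *Tdgf1* (0.87) were higher without overlap. With the GC trend removed, *Pou5f1* was called higher (0.23, limma adjusted p = 0.00365), as it was without the 3p pair (0.17, adjusted p = 0.0493).

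Most formative and primed genes were higher in set 3. Of 22 genes, 16 were higher in set 3 and 4 were lower, against 24.2% and 27.4% over all genes, with a median of 0.59 and medians of 0.53 to 0.74 in the 5 pairs. *Fgf5* (chr5:98254184-98277030), the classical marker of the epiblast after implantation, was at 62.9, 55.6, 68.6, 44.9 and 58.9 in set 2 and 298, 235, 255, 162 and 274 in set 3. This is 4.11-fold (2.04 ± 0.084, limma adjusted p = 4.78e-10), and the lowest library of set 3, that of 5p, was above all libraries of set 2. *Otx2* (chr14:48657677-48673819), the homeobox factor that drives the transition out of the naive state, was at 167, 219, 206, 216 and 213 in set 2 and 719.6, 800.2, 700.3, 833 and 739 in set 3. Its rise was 3.71-fold (1.89 ± 0.062, limma adjusted p = 7.06e-11).

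*Fgf15*, a secreted FGF, rose 3.06-fold from 61.6 ± 12.1 in set 2 to 189.9 ± 32.5 in set 3 (SD, n = 5), and the kinase gene *Pim2* rose 2.83-fold from 712 ± 70.8 in set 2 to 2021 ± 235 in set 3. *Dnmt3b*, a de novo DNA methyltransferase gene, was at 5716, 6145, 6104, 5209.6 and 5603 in set 2 and 11164, 9604, 9641, 8932 and 9772 in set 3 (0.77 ± 0.055), and its paralogue *Dnmt3a* rose by 0.59 ± 0.060, both without overlap, whereas their cofactor gene *Dnmt3l* was lower (−0.30). *Pou3f1* (Oct6) rose by 0.38, less than *Otx2* or *Fgf5*. The 4 members that were lower were *Krt18* (−1.82), a keratin of simple epithelia, *Sox11* (−0.76), *Sox4* (−0.20) and *Nes* (−0.39), the intermediate filament of neural progenitors. *Cdh2* (−0.24) and *Tead2* (−0.088) were not called.

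In the Nodal and Lefty group, 9 of 18 genes were higher and 4 lower, against 24.2% and 27.4% of all genes tested. The median was 0.14. With the GC trend removed 12 were higher and 3 lower, with a median of 0.26. *Lefty1* (chr1:180935022-180938400), a secreted antagonist and target of Nodal, was at 311, 487, 418, 426 and 387 in set 2 and 1349, 2071, 1935, 2429 and 2120.0 in set 3. It rose 4.83-fold (2.27 ± 0.066, limma adjusted p = 2.81e-11), and within each set the scr library was the lowest. *Lefty2*, its neighbour on chromosome 1, rose by 0.86 ± 0.089. The ligand *Nodal* was at 832, 1063, 992, 959.7 and 901 in set 2 and 971, 1041, 1082, 915 and 1001 in set 3, with overlapping sets (0.080 ± 0.055, limma adjusted p = 0.237). It was called higher with the GC trend removed (0.20, limma adjusted p = 0.0051). The 4 genes that were lower were *Furin* (−0.94) and *Pcsk6* (−0.14), convertases that cleave the Nodal precursor, the TGF-β feedback gene *Pmepa1* (−0.90) and the transducer *Smad3* (−0.58).

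In the other pathways that steer the exit from naive pluripotency, members were called in both directions. Over all genes, 24.2% were higher and 27.4% lower, and the shares in the BMP group were near these. Of 16 FGF and ERK feedback genes, 5 were higher and 8 lower. The ERK feedback regulators *Dusp6* (0.21) and *Spry4* (0.25) were higher, *Spry4* not with the siRNA term left out (limma adjusted p = 0.188) or without the scr pair (0.19, adjusted p = 0.053), while *Phlda1* (−1.13), *Dusp5* (−0.98) and *Dusp4* (−0.78) were lower without overlap. Of 14 BMP genes, 3 were higher and 5 lower. The ligand *Bmp4*, which with LIF sustains naive cells in serum, was at 734, 584, 599, 621 and 648 in set 2 and 315, 209, 204, 263 and 214 in set 3, a 2.67-fold lower level (−1.42 ± 0.068, limma adjusted p = 1.84e-09). The BMP target *Id3* was lower by 0.26 on the log2 scale but not called with the GC trend removed (limma adjusted p = 0.16), while *Id1* differed by 0.024 ± 0.063 (limma adjusted p = 0.775) and was called higher with that trend removed (0.17, adjusted p = 0.0232). Wnt target genes were lower in 8 and higher in 3 of 15, with *Axin2*, the universal feedback target, at −0.68 and *Sp5* at −0.50, but the streak gene *T* (Brachyury), also a Wnt target, at 0.43.

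**Figure D3:**
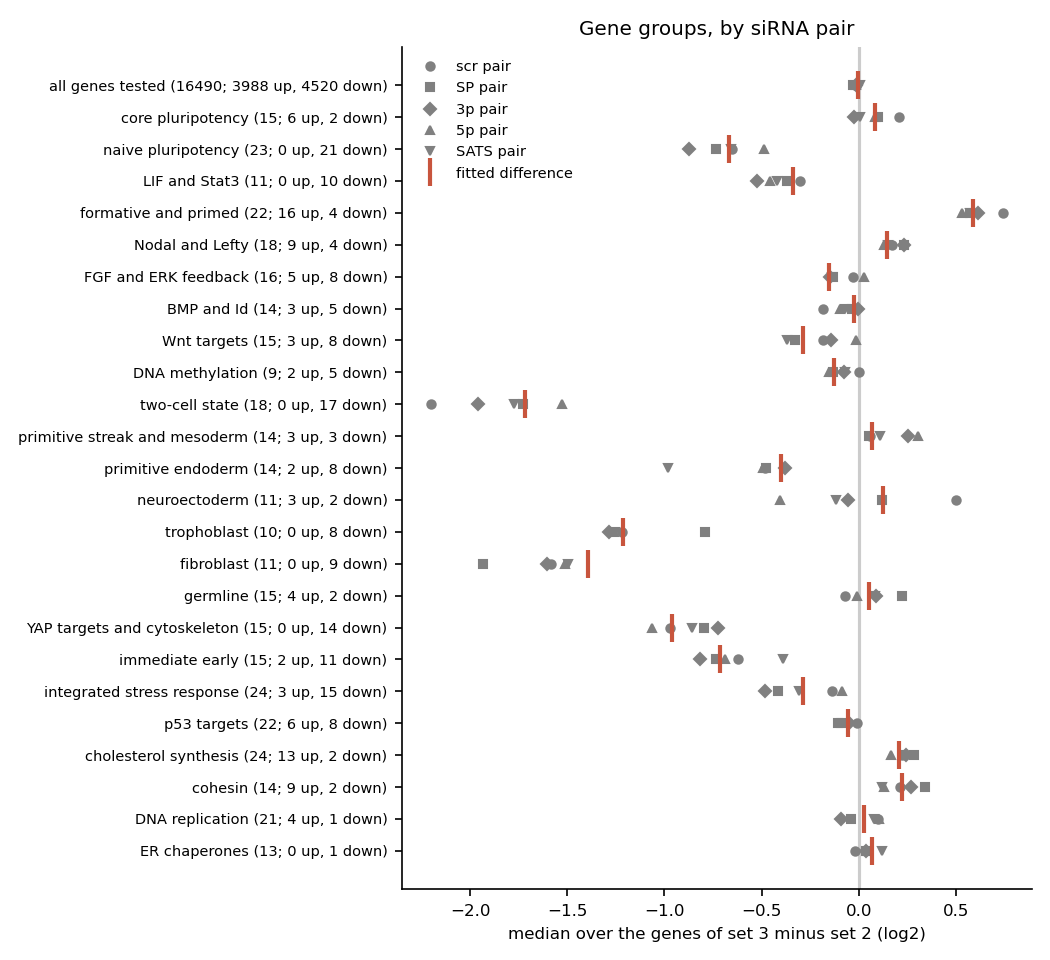
For each gene group (number tested and numbers called in brackets), the median over its genes of set 3 minus set 2 (log2) is drawn for each of the 5 siRNA pairs in grey and for the fitted differences as a red bar. A red bar is a median of averaged differences and need not lie among the grey symbols. All 5 pairs lie below 0 for the naive, LIF, 2-cell, trophoblast, fibroblast and YAP groups and above 0 for the formative and primed, Nodal, cholesterol and cohesin groups. They also lie below 0 for the primitive endoderm, immediate early, stress response, Wnt, BMP (−0.18 to −0.0025) and p53 (−0.11 to −0.011) groups. For the streak and mesoderm group they lie above 0 (0.052 to 0.30).

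The naive and the formative levels placed each library. With every gene expressed relative to its mean over the 10 libraries, the median over the naive genes was 0.24 to 0.49 in set 2 and −0.55 to −0.13 in set 3 (log2). The median over the formative and primed genes was −0.33 to −0.23 in set 2 and 0.17 to 0.37 in set 3. The sets did not overlap on either scale. In set 2 the scr library had the highest naive level, and in set 3 the 5p (−0.13) and scr (−0.16) libraries did.

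A pair of control libraries that the comparison had not used lay with their sets. The untreated library of set 2 had a naive level of 0.52 and a formative level of −0.25, and the luciferase siRNA library of set 3 had −0.26 and 0.25. All 23 naive genes and all 11 LIF genes were lower in luciferase than in untreated cells, as were 52.2% of all genes tested. Of the 3988 genes called higher in set 3, 3780 (94.8%) were higher in luciferase than in untreated cells, against 47.8% of all genes tested. Of the 4520 called lower, 4306 (95.3%) were lower. The treatments of these 2 libraries differ as well as their sets, and with 1 library each there is no replicate check.

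The 4 libraries of set 1 were sequenced to 9023224 to 14040830 reads, with 69.2% to 79.1% of the reads on *Rn45s*, and are given only as a description. Its scr library had the highest naive level of all libraries in the table (1.35) and the lowest formative level (−0.79). Its 3 SP libraries were at 0.82, 0.39 and −0.10 for the naive genes and at −0.37, 0.15 and 0.39 for the formative genes. The scr libraries of the 3 sets were therefore ordered set 1, set 2, set 3 from high to low naive level, with 1 library each. Other groups did not all keep that order. For the fibroblast markers described below, scr was at −3.62 in set 1, 0.87 in set 2 and −0.71 in set 3. The trophoblast markers were at −2.38, 0.70 and −0.52, and the YAP and cytoskeleton genes at −2.42, 0.42 and −0.43. The 2-cell genes kept it, at 1.17, 0.98 and −1.36.

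**Figure D4:**
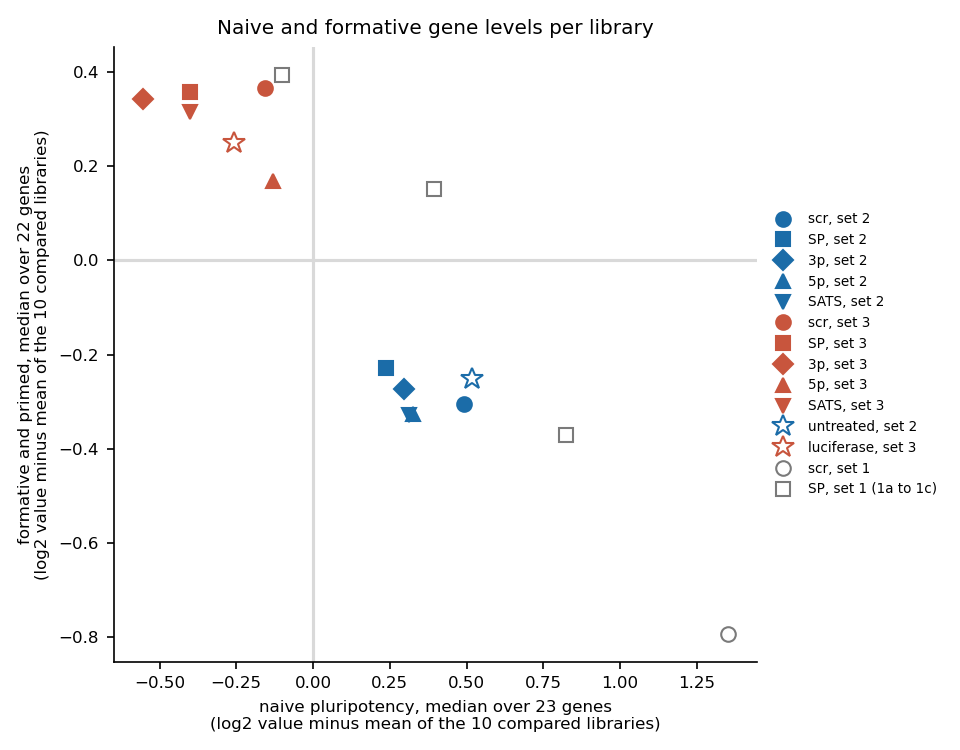
Each symbol is 1 of the 16 libraries, placed by the median log2 level of 23 naive genes (x axis) and of 22 formative and primed genes (y axis), both relative to the mean of the 10 compared libraries. Set 2 (blue) lies at the lower right and set 3 (red) at the upper left, with the untreated and luciferase libraries (stars) beside their sets and set 1 (open grey) spread from the lower right corner to the set 3 libraries.

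Genes of the 2-cell state had the lowest median of the groups examined. Of 18 such genes, 17 were lower in set 3 and 0 higher, against 27.4% and 24.2% of all genes tested. Their median was −1.72, and *Pramel6* (−0.52, limma adjusted p = 0.208) was not called. *Zscan4a* (chr7:10794242-10799057), a member of the Zscan4 cluster that marks 2-cell-like cells, was at 146, 124, 138, 154 and 123 in set 2 and 13.1, 19.1, 22.0, 19.4 and 31.8 in set 3. It was 6.46-fold lower (−2.69 ± 0.16, limma adjusted p = 1.22e-08), and *Zscan4d* differed by −2.26. *Dux*, the factor that activates this program, was at 11.3, 7.18, 17.9, 11.5 and 5.64 in set 2 and 1.98, 1.84, 1.76, 3.24 and 4.69 in set 3, which is few reads per library. The summed value of the group was 553 to 688 in set 2 and 87.7 to 204 in set 3. The Zscan4 and Usp17l genes are near-identical copies, so that reads may be split among them. With a pseudocount of 10 the median of these low genes was −0.91, above that of the fibroblast markers (−1.28), and with only the 10 genes of mean value 10 or more it was −2.32.

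Most mesenchymal and contractile genes examined were lower in set 3. Of 11 fibroblast markers tested, 9 were lower and 0 higher (median −1.39), against 27.4% and 24.2% of all genes tested. *Dcn* (−0.37) and *Fbn1* (0.14) were not called. *Col1a1* (chr11:94936224-94953042), the main chain of fibrillar collagen, was at 2223, 2044, 1922, 1849 and 2907 in set 2 and 367, 221, 274, 155 and 364 in set 3, 8.20-fold lower (−3.04 ± 0.10, limma adjusted p = 8.20e-11). *Acta2* (chr19:34241090-34255590), smooth muscle actin, was at 3956, 3622, 3657, 4534 and 6951 in set 2 and 649, 603, 639, 631 and 1067 in set 3, 6.28-fold lower (−2.65 ± 0.053). The SATS library was the highest of its set for *Acta2* in both sets, and the sets did not overlap for either gene. The summed value of the markers was 14462 to 20452 in set 2 and 4288 to 6258 in set 3. *Dcn*, a defining fibroblast gene, stayed between 2.78 and 6.29 across the 10 libraries, and 2 of the 12 markers were under a value of 10 in all of them. The part of such cells in the pluripotency differences was not tested.

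Targets of YAP and genes of the actin cytoskeleton followed, with 14 of 15 lower, against 27.4% of all genes tested, and *Ajuba* (−0.066) not called. In 14 of them set 3 lay below set 2 without overlap, against 16.3% of all genes tested. *Axl*, a receptor tyrosine kinase, was lower by 1.80 on the log2 scale, from 852 ± 372 in set 2 to 247 ± 117 in set 3 (SD, n = 5 each). *F3*, tissue factor, differed by −1.48 and *Tagln*, an actin-binding protein of smooth muscle, by −1.28. *Actb*, cytoplasmic actin, was at 104485 ± 5645 in set 2 and 78502 ± 2705 in set 3 (−0.41 ± 0.071).

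Markers of extraembryonic lineages were mostly lower, and the shares of early germ layer markers called were near those over all genes (24.2% higher, 27.4% lower). Of 10 trophoblast markers, 8 were lower and 0 higher (median −1.21). That median was −0.74 with a pseudocount of 10 and −0.92 among genes averaging 10 or more or with no filter on low values. With the untreated and luciferase libraries as a sixth pair it was −0.95. *Hand1*, a helix-loop-helix factor of trophoblast and heart, was at 120.0, 121, 115, 154 and 118 in set 2 and 23.4, 23.9, 22.5, 14.3 and 22.4 in set 3, and *Krt7*, *Krt18* and *Krt8* differed by −2.21, −1.82 and −1.74. The lineage factor *Cdx2* was not called (−0.21, limma adjusted p = 0.143). Of 14 primitive endoderm markers, 8 were lower and 2 higher (1 higher without the SP, 3p, 5p or SATS pair). The basement membrane genes *Col4a2* (−2.09), *Col4a1* (−1.69), *Lama1* (−1.13) and *Sparc* (−0.91) fell most. The lineage factor *Gata6* was near 13.6 ± 1.22 in set 2 and 10.4 ± 3.53 in set 3 and not called, while *Gata4* rose by 0.82 from a low level, 28.0 ± 2.20 in set 2 and 50.9 ± 8.72 in set 3. Of 14 streak and mesoderm markers, 3 were higher and 3 lower. *Eomes*, a T-box factor of the streak, was at 108, 114, 106, 92.6 and 98.1 in set 2 and 216, 202, 240.0, 134 and 193 in set 3 (0.90 ± 0.090, limma adjusted p = 1.91e-06), and *Kdr*, a receptor of vascular mesoderm, differed by −1.25. Of 11 neuroectoderm markers, 3 were higher and 2 lower. The medians of these last groups, 0.070 and 0.12, changed sign among genes averaging 10 or more (−0.056 and −0.16), and that of the streak group also without the SATS pair (−0.067).

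The single genes with the largest rise among those averaging 100 or more included 2 outside the groups above that rose further than *Lefty1*. *Calcr*, the calcitonin receptor, was at 28.9, 25.9, 25.4, 35.8 and 31.0 in set 2 and 180.1, 158, 165, 239 and 162 in set 3, and *Enpp2*, the enzyme autotaxin, at 69.2, 69.0, 63.2, 75.4 and 62.4 in set 2 and 439.9, 472, 363, 366 and 390.3 in set 3. They rose 5.95-fold and 5.90-fold (2.57 ± 0.091 and 2.56 ± 0.080), and neither overlapped between the sets. *Kcnj3*, a potassium channel subunit, rose by 2.18 and *Trh*, the thyrotropin-releasing hormone, by 1.91. Others were *Ugt8a* (1.59), *Aff3* (1.57) and *Sned1* (1.50). On the lower side, *Cryab*, a small heat shock protein, was at 573, 589.5, 636, 619 and 718 in set 2 and 87.3, 102, 97.8, 72.6 and 116 in set 3, 6.60-fold lower (−2.72 ± 0.078, limma adjusted p = 2.81e-11). *Pmp22* (−2.58), *Robo2* (−2.51), the receptor of Slit ligands, *Zfp703* (−2.31), the transglutaminase *Tgm2* (−2.30), *Sept4* (−2.29) and the skeletal actin *Acta1* (−2.22) were lower by similar amounts. *Inhbb*, a subunit of activin and inhibin, differed by −2.31, with values of 80.5, 20.2, 15.4, 79.1 and 38.3 in set 3. The small nucleolar RNA *Snora78* was at 95.2, 177, 234, 230.0 and 234 in set 2 and 31.3, 27.6, 24.2, 24.1 and 30.0 in set 3 and differed by −2.71.

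Most immediate early and integrated stress response genes were lower, and most ER chaperone and DNA replication genes were not called. Of 15 immediate early genes, 11 were lower and 2 higher. The shares over all genes tested, 24.2% higher and 27.4% lower, hold beside each count of this paragraph. The differences within this group ran from −1.35 to 1.32. *Ier3* (−1.15), *Atf3* (−1.05) and *Fos* (−0.96) fell, the last from 91.1 ± 12.9 in set 2 to 46.4 ± 6.71 in set 3. *Egr1* was not called (0.071, limma adjusted p = 0.393). Of 24 genes of the integrated stress response, 15 were lower and 3 higher, with *Ddit3* at −0.91 and *Asns*, asparagine synthetase, at −0.60. Of 13 ER chaperone genes 1, *Sdf2l1* (−0.39), was called, and with the GC trend removed 3 were higher and 2 lower. Without the scr pair 2 were higher and 1 lower. Of 22 targets of p53, 6 were higher and 8 lower, against 24.2% and 27.4% over all genes, with the cell cycle inhibitor *Cdkn1a* at −0.79. The higher ones numbered 1 with the GC trend removed (10 lower), 1 without the siRNA term, 2 without the SP pair and 3 without the 3p pair. Of 21 DNA replication genes, 4 were higher and 1 lower, with a median of 0.025 (7 higher with the GC trend removed). Mitosis genes had a median of 0.076, with 6 of 16 higher and 2 lower. With the GC trend removed that median was 0.030, and without the siRNA term 3 were higher.

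The set difference followed the base composition of the transcripts. Across 10655 genes that averaged 50 or more and had an annotated transcript, Spearman's rho between the set difference and GC content was −0.39. It was 0.083 with transcript length and 0.046 with expression level. These are correlations across genes of the same libraries and are given as a description. In the bin of genes with the lowest GC content (31.2% to 45.2%), 53.9% were called higher and 10.4% lower, and in the bin with the highest (56.2% to 72.8%), 12.8% were called higher and 48.8% lower. The GC trend named in this report is a smooth trend on length and GC content together, and neither was removed alone. With that trend removed from each pair, the naive genes kept a median of −0.67 (20 lower, 0 higher). The LIF genes were at −0.34 and the formative and primed genes at 0.60 (16 higher, 5 lower). The 2-cell genes were then at −1.76 and the fibroblast markers at −1.33. Of 14 cohesin genes, 9 were called higher and 2 lower, against 24.2% and 27.4% of all genes tested. With the trend removed their median went from 0.22 to 0.019, with 6 higher and 3 lower.

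**Figure D5:**
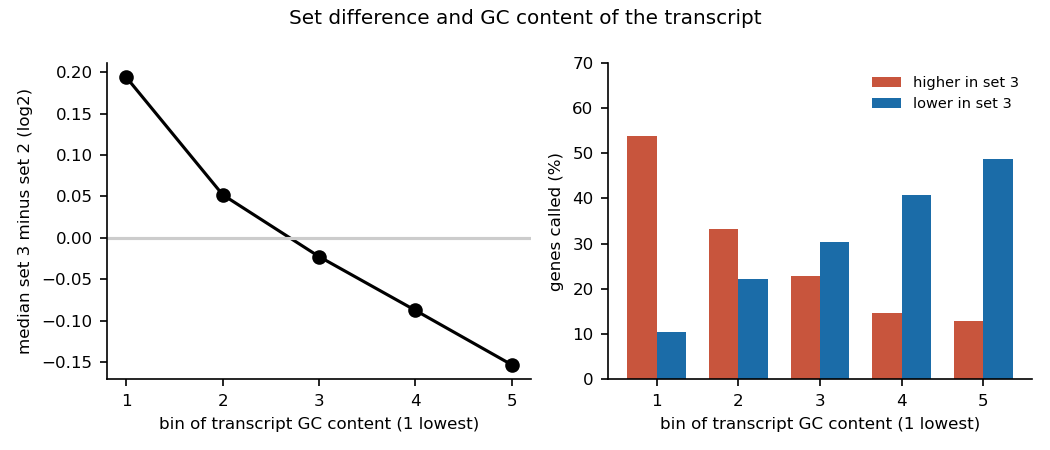
Genes averaging 50 or more were split into 5 equal bins of transcript GC content (x axis, 1 lowest). The left panel gives the median of set 3 minus set 2 (log2), which runs from 0.19 to −0.15, and the right panel the percentage of genes called higher (red) or lower (blue) in set 3.

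Abundant noncoding RNAs also differed between the sets. *Rmrp*, the RNA of RNase MRP, was at 53793, 66691, 77421, 83240.4 and 76325 in set 2 and 30188, 32398, 31885, 38993 and 52386 in set 3 (−0.96 ± 0.090, limma adjusted p = 1.04e-06), without overlap. *Rpph1*, the RNA of RNase P, differed by −0.81 ± 0.13, and the SATS library of set 3 (47898) lay within the range of set 2. *Rn45s* was not called (0.39 ± 0.20, limma adjusted p = 0.123), but it was with edgeR (adjusted p = 0.00505) and DESeq2 (adjusted p = 0.0165) on the recovered reads. In limma it was called with a pseudocount of 0.1 (adjusted p = 0.0395) and without the siRNA term (adjusted p = 0.0266). *Lars2*, a mitochondrial tRNA ligase gene, was at 357, 563, 2513, 1914 and 3559 in set 2 and 622, 728, 418, 427 and 564 in set 3. Its 3p, 5p and SATS libraries of set 2 were the high ones, with a difference of −1.25 ± 0.41. Without the SATS pair that difference was −0.89 (limma adjusted p = 0.0907). The part of RNA preparation in the other differences was not tested.

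The sets accounted for more of the variation than the siRNAs. Over the same 11019 genes averaging 50 or more, the median share of a gene's sum of squares was 41.7% for the set, with 1 degree of freedom, and 35.9% for the 5 siRNAs, with 4. In the same fit, 1659 genes (10.1%) differed among the siRNAs (limma F test, adjusted). The set difference of single pairs was then compared with that of the other 4. With 1 library per siRNA and set, such a comparison can detect only large departures. It cannot settle whether the set difference is the same under every siRNA. No gene passed in the scr, SP, 3p, 5p or SATS pair (0 of 16490 each, 0.0%, limma and edgeR, adjusted). At an unadjusted p under 0.05, limma gave 556, 503, 856, 1012 and 885 genes and edgeR 544, 502, 824, 909 and 949. *Stag2*, the paralogue of *Stag1* in cohesin, was at 1811, 1895, 2004, 1434 and 2406 in set 2 and 2895, 3287, 3265, 2092 and 4474 in set 3, with the SATS library of set 2 above the 5p library of set 3. Its rise was 0.72 ± 0.053 (limma adjusted p = 1.01e-07) and was present in 5 of 5 pairs.

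No chromosome stood far apart. Among genes averaging 50 or more, the median set difference ranged from −0.066 on chromosome 19 to 0.062 on chromosome 13 among the autosomes, and it was 0.11 over the 371 genes of the X chromosome. The X value was between 0.060 and 0.16 in the 5 pairs.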

How the data were processed

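Serum-grown mESCs were profiled by RNA-seq of rRNA-depleted total RNA, prepared with a directional kit. The authors ran hisat2 on mm10 and featureCounts within Nextflow and divided the counts by DESeq2 size factors (version 1.14.1 per the labels). The deposited values are therefore a normalized signal per gene, and not counts. Paired-end and single-end reads were both used, and which library had which is not given in the sources used here.

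Dividing by the value of 1 read gave whole reads for 100% of the values (tolerance 0.05). PCR copies are not separate molecules, and depth limits counting error alone. log2(value + 1) was fitted in limma 3.58.1 (R 4.3.3; lmFit, eBayes with trend) with terms for set and siRNA, over genes whose values summed to 10 or more. The threshold for a call was 0.05 after Benjamini-Hochberg adjustment. On this scale the change of low genes is understated. The fits were tested on simulated data. Deviations of libraries with the same siRNA from their set's mean correlated at 0.20 to 0.63 over 11019 genes and were highest with the same siRNA for 5 of 5, and the pairing by siRNA was kept. Alternatives were edgeR 4.0.16 and DESeq2 1.42.0 on the recovered reads, other scalings, pseudocounts and filters, leaving out pairs, and a spline on transcript length and GC content (GENCODE M21), the last chosen after the data were seen.

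The members and gene lists were chosen with earlier results of these data known, and lists are described by counts without a test. Genes were named by rule: the 12 largest called differences in each direction with a mean value of at least 100 and the same sign in all pairs, up to 4 per list with a mean value of at least 50, and a fixed set of pluripotency and pathway genes. 1 gene that the rule names is not reported here. Other list members were named to account for the genes of a count or after their values were seen. Coordinates are of GENCODE M21. Libraries of cells grown in 2i and the separate table of set 1, CPM values from edgeR, were not used here. A list of genes of the mitochondrial genome had 0 members in the table.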

Additional observations from a re-analysis of the deposited data

Results flagged for a closer look

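In 31 of 295 groups of 5 values, 1 library or pair lay apart from the other 4 by Dixon's criterion, which chance alone meets in about 1 of 20 groups. Each set holds 5 different siRNAs with 1 library each, so that siRNA and library cannot be told apart within a set. The values are normalized read counts.

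The SATS libraries were the highest for several contractile, keratin and other genes. In set 2 the SATS library was at 6951 for *Acta2* (the others 3622 to 4534), 18476 for *Krt8* and 9341 for *Tagln*. In set 3 it was at 1067 for *Acta2*, 803 for *Acta1*, 145 for *Krt7*, 76.2 for *Sept4*, 295 for *Dppa3* (the others 159 to 169), 951 for *Idi1* and 47898 for *Rpph1*.

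The 5p libraries stood apart for *Lama1* in both sets, at 2059 in set 2 and 1174 in set 3. For *Hand1* the 5p library was the highest of set 2, at 154, and the lowest of set 3, at 14.3. It was also the highest for *Cdx2* in set 2 (79.2) and for *Calcr* in set 3 (239), and the lowest of set 3 for *Actb* (73719), *Mirg* (183) and *Phlda1* (247).

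The scr library of set 2 was the highest for the naive genes *Tbx3* (868), *Esrrb* (4255) and *Tfcp2l1* (5401, the others 3863 to 4113) and the lowest for *Otx2* (167). In set 3 the scr library was the highest for *Fos* (58.3). The SP library of set 2 was the highest for *Ajuba* (6129), *Furin* (1858) and *Insig1* (895) and the lowest for *Trh* (490).

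Among the group medians, the SP pair differed least for the trophoblast markers (−0.79, the other pairs −1.29 to −1.22) and most for the fibroblast markers (−1.94, the others −1.60 to −1.50), and the SATS pair differed most for the primitive endoderm markers (−0.98, the others −0.49 to −0.38).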

How the results depend on the processing

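Over 16 alternatives the genes called by set stayed within 1.5 times the reported counts. Leaving out 1 pair gave 7327 to 7892 genes, against 8508. With no replicate block, that is, without the pairing by siRNA, 3114 genes were higher and 3758 lower. The genes that differed among the siRNAs fell from 1659 to 1 without the set as a block. Quantile normalization turned the balance to 4700 higher and 3975 lower, TMM scaling gave 4306 and 4240, and edgeR 4312 and 4187, while the median over all genes moved from −0.014 to 0.038 at most. The pair-specific comparisons gave 0 genes in limma and in edgeR.

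Of 2911 values of 182 named genes under the alternatives, 2846 kept their direction and their side of the threshold, 27 lost the call and 26 gained it. The other 12 changed sign, and those genes were called neither as reported nor under that alternative. *Stag1* (−0.010) became 0.017 with quantile normalization, 0.010 with TMM scaling, 0.021 with edgeR, 0.019 with DESeq2 and 0.065 with the untreated and luciferase libraries as a sixth pair, and −0.055 to 0.022 without 1 pair. *Id1* (0.024) became −0.069 with that sixth pair and was −0.040 to 0.074 without 1 pair, and *Ddx4* (0.21) became −0.027 with the GC trend removed. *Lars2* lost its call without the 3p (−0.91), 5p (−1.02) or SATS (−0.89) pair, without the block (adjusted p = 0.0503), with that sixth pair (−0.94) and with DESeq2 (adjusted p = 0.106). The cause was not tested. Of 640 list medians, 603 moved by less than the spread between pairs, and 37 by more. Of the 640, 18 medians of 7 lists changed sign, from reported medians between −0.022 and 0.12 to values between −0.16 and 0.0059. The naive median ranged from −0.74 to −0.59 and the formative and primed median from 0.56 to 0.62. Pseudocounts and filters moved the 2-cell median most, since its genes have low values, from −2.32 to −0.91.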

Other observations

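Of 24 cholesterol synthesis genes, 13 were higher in set 3 and 2 lower, against 24.2% and 27.4% of all genes tested, with a median of 0.21 and the 5 pairs between 0.16 and 0.28. The enzymes *Cyp51* (0.80) and *Idi1* (0.79) and the sterol sensor *Insig1* (0.75) rose without overlap between the sets. Of 17 glycolysis genes, 6 were lower and 1 higher, among them the glucose transporter *Slc2a3* (−0.71) and hexokinase *Hk1* (−0.67), and 10 were not called. With the GC trend removed, 8 glycolysis genes were higher and 5 lower, and with quantile normalization 4 and 6. Without the SP or the 3p pair 2 were higher. Of 16 hypoxia response genes, 5 were higher, such as *Pdk1* (0.70), and 8 lower, such as *Vegfa* (−1.20), and with the GC trend removed 4 and 5. Interferon response genes were lower in 10 and higher in 2 of 20, with *B2m*, the light chain of MHC class I, at −0.87. Their median of −0.26 was −0.12 without the scr pair.

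Imprinted genes moved in both directions, with 10 higher and 13 lower of 28. Over all genes tested, 24.2% were higher and 27.4% lower, which holds beside each count of this paragraph. The growth factor gene *Igf2* was at 1922, 1850.5, 2019, 2117 and 2443 in set 2 and 602, 519, 589, 493 and 636 in set 3 (−1.86 ± 0.060, limma adjusted p = 6.35e-11). The noncoding RNAs *Meg3* (0.77), *Rian* (0.82) and *Mirg* (0.75), transcribed from the maternal copy of 1 imprinted region on chromosome 12, were higher without overlap. Of 15 germline genes, 4 were higher and 2 lower, and *Rhox5*, a homeobox gene on the X chromosome, was at 223, 328, 330.4, 312 and 280.4 in set 2 and 60.7, 64.7, 66.9, 97.6 and 106 in set 3 (−1.91 ± 0.12). With the GC trend removed, 4 germline genes were higher and 5 lower, and their median went from 0.051 to −0.10. Of 9 genes of DNA methylation and its removal, 2, *Dnmt3a* and *Dnmt3b*, were higher and 5 lower, with the dioxygenase *Tet2* at −0.43. The lower ones numbered 3 with the GC trend removed and 3 without the SP, 3p or 5p pair. Heat shock genes were lower in 5 and higher in 1 of 10, with *Hspb1* at −0.68, and 3 were lower without the scr, 3p or 5p pair. Polycomb genes were higher in 4 and lower in 2 of 12, and genes of the nucleolus and Pol I higher in 9 and lower in 4 of 17, with medians of 0.035 and 0.11. The nucleolus median was 0.041 with the GC trend removed, with 6 higher and 2 lower, and without the SP or the 3p pair 1 was lower. Of the polycomb genes 1 was lower without the SP, 3p or 5p pair, and 1 was higher and 1 lower without the siRNA term. Of 9 abundant noncoding RNAs and related genes, 2 were higher and 4 lower. Their median of −0.067 became −0.38 with the GC trend removed.

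Genes of translation and respiration had medians near 0, with single pairs on both sides of it. The pairs ran from −0.17 (3p) to 0.18 (SATS) for the cytosolic ribosomal protein genes. For the mitochondrial ones they ran from −0.25 (3p) to 0.096 (SATS), and for the respiratory chain from −0.26 (3p) to 0.061 (SATS). Cytosolic ribosomal protein genes were higher in 25 and lower in 27 of 83, mitochondrial ones in 11 and 24 of 77, and respiratory chain genes in 9 and 29 of 81. Over all genes tested, 24.2% were higher and 27.4% lower, and the shares of the cytosolic group (30.1% and 32.5%) were near these. With the GC trend removed, 18 mitochondrial ribosomal protein genes were higher and 24 lower, and 19 and 24 respiratory chain genes. Without the 3p pair the respiratory chain counts were 16 and 23. Replication-dependent histone genes were lower in 28 and higher in 5 of 59, with a median of −0.17 and the 5 pairs between −0.43 (3p) and 0.044 (SATS). That median was −0.073 with the GC trend removed, with 10 higher and 23 lower, and 2 were higher without the scr or the SATS pair.

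A further 3 groups were chosen after the values were seen. Some of their genes, such as *Col1a1*, *Col4a1*, *Krt8* and *Krt18*, were already counted in groups above. Over all genes tested, 24.2% were higher and 27.4% lower. Of 42 collagen genes, 24 were lower and 0 higher (median −0.59), and of 20 keratin genes 13 were lower and 1 higher (median −1.13, and −0.33 with a pseudocount of 10). Without the SATS pair 2 collagen genes were higher. The number was 3 with quantile normalization, with the GC trend removed or with the untreated and luciferase libraries as a sixth pair. Of 92 small nucleolar RNA genes, 44 were higher and 4 lower, with a median of 0.38. With the trend on transcript length and GC content removed, the median was 0.096, with 13 higher and 8 lower. Length and GC content were not removed separately.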
